A study of Mus musculus with 4 samples.

Results

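Proteins that a cell secretes or sets into its membranes enter the endoplasmic reticulum (ER) through a protein channel and leave it in coated vesicles, and the genes of that route were compared between sorted cells of mouse colon. The genes were taken by name: 77 of the 27827 gene names on the array matched the families Sec, Cop, Tmed, Kdelr, Sar1, Arf, Lman, Ssr, Spcs and Srp, or were Surf4, and 143 of 41174 gene probes carried these names. Each gene was represented by its brightest measured probe, and 74 of the 77 were measured. The names cover 16 genes of targeting and the translocon, 5 of signal peptidase, 17 of the COPII coat and ER exit sites, 8 of the COPI coat, 6 Arf GTPases and 19 cargo receptors. They also take in 6 genes that only share the letters: Sec1, a fucosyltransferase-like gene, the Sec14-like lipid-binding genes Sec14l1 to Sec14l4, and Copg2as2, named as an antisense gene of Copg2.

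The study set RNA of 2 cell populations, both sorted from colon crypts of normal adult mice, against each other on 2-colour microarrays. The mice carried a knock-in at Lgr5 that encodes EGFP and a tamoxifen-dependent Cre recombinase, so that cells with an active Lgr5 promoter are green. One population was sorted for that GFP and is labelled as stem cells, and the other was sorted for strong staining with an antibody to CD24 and is described as a subset of goblet cells, the mucus-secreting cells of the crypt. There were 4 arrays, a first array and its dye swap for each of 2 replicates, and every array held both RNAs, 300 ng of each. No treatment is named. The labels leave unsaid whether separate animals or pools gave the replicates. The p-values reflect the spread between the 2 replicate averages, pooled with that of all genes, and no more, and that spread can be technical. Spread between an array and its dye swap enters neither the p-values nor the SDs, so an SD can understate the spread over single arrays. Every value below is the log2 ratio of the Lgr5-GFP-labelled over the CD24hi-labelled RNA, and 1 stands for a doubling. Values on single arrays are listed in the order first array of replicate 1, dye swap of replicate 1, first array of replicate 2, dye swap of replicate 2.

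The sort markers ran against the labels, and this bears on every direction given here. Lgr5, the stem cell receptor whose promoter drives the GFP, gave -3.61, no value, -2.90 and -3.51. Its mean was -3.41 ± 0.29 (SD, n = 2 replicates; limma, adjusted p = 0.000492), that is, lower in the Lgr5-GFP-labelled RNA. In that RNA Lgr5 was well above background on 3 of 4 arrays, which limits the size of its ratio. Cd24a, which encodes CD24, was at 2.12 ± 0.30 (adjusted p = 0.000630), and the mucin gene Muc2 of goblet cells at 3.76 ± 0.58 (adjusted p = 0.000516). A direction is therefore stated throughout as higher or lower in the Lgr5-GFP-labelled RNA, without saying which cells that RNA came from. In bulk RNA of this kind, more cells of a type and more RNA of a gene per cell cannot be told apart.

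The dye swap of replicate 1 stood apart from the other arrays. The scanner software marked 32648 of its 43379 gene spots as uneven or outlying (75.3%), against 100 to 173 spots on each of the others, and only 55 of the 74 measured genes kept a value there. Over those 55 genes the median log2 ratio was 0.98 on the first array of replicate 1, 0.25 on its dye swap, 1.17 on the first array of replicate 2 and 1.22 on its dye swap. Of the 55 genes 10 were below 0 on the dye swap of replicate 1, against 3 on each other array. That dye swap was also brighter, with median signals of 4377 (Lgr5-GFP label) and 1358 (CD24hi label), against 94 to 197 on the other arrays. On it 99.8% and 99.6% of gene spots counted as well above background, against 41.2% to 62.7% on the others. Being well above background thus says little on that array. Array ratios correlated with r between 0.726 and 0.958 across genes, which are not independent replicates. Of the 74 genes, those whose call changes without this array are given with and without it. For the other genes named below this was not done gene by gene.

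Secretory proteins are recognised by the signal recognition particle (SRP) as they emerge from the ribosome, threaded through the Sec61 channel, and freed of their signal peptide by signal peptidase. Vesicles with a COPII coat, built by the GTPase Sar1 and the proteins Sec23, Sec24, Sec13 and Sec31, carry cargo from the ER towards the Golgi. Vesicles with a COPI coat, recruited by Arf GTPases, bring escaped ER proteins and recycling receptors back, and cargo receptors such as the KDEL receptors and p24 proteins select what travels. Goblet cells, which make large mucins, are known for an extensive ER and Golgi.

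Because transcription factors of the ER stress response, XBP1 and ATF6 among them, are known to act through short motifs in promoters of such genes, promoters were searched for those motifs on both strands. RefSeq promoter windows (GRCm38.p6, 250 bases before to 50 after the start) were found for 63 of the 77 genes, as 71 windows. The motif TGACGTGG, known as the unfolded protein response element, was in 8 of these 71 windows (11.3%) and in 0.676% of all 32851 windows. The windows belonged to 7 genes, Arf1, Copb1, Copb2, Kdelr3, Sec16b, Sec23a and Sec24d. Of these 7 genes 6 were called higher in the Lgr5-GFP-labelled RNA, all but Sec23a, where 22.0% of all genes tested and 70.3% of the measured genes described here were called higher. For 5 genes in which the motif began before the start, the stretch is shown on the gene's strand and ends at the start site or, in Copb2, at the end of the motif, because they include the most changed COPII and KDEL receptor genes; capitals mark the motif or its reverse complement.
Kdelr3 (chr15:79516332-79516407, plus strand): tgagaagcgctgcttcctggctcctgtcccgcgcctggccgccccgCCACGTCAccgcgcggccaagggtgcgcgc
Sec24d (chr3:123267424-123267495, plus strand): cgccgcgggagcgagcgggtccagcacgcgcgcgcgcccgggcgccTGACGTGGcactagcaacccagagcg
Copb1 (chr7:114254681-114254754, minus strand): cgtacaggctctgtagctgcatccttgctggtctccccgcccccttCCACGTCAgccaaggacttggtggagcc
Copb2 (chr9:98563678-98563731, plus strand): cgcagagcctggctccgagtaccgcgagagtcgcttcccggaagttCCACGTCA
Sec16b (chr1:157506706-157506795, plus strand): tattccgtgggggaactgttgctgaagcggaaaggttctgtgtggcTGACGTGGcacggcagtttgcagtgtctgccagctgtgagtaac

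In these stretches the motif began 30 bases before the start in Kdelr3, 26 in Sec24d, 28 in Copb1, 7 in Copb2 and 44 in Sec16b. In Sec23a it began 6 bases after the start, and in Arf1 21 bases after the start of one listed transcript and 84 before that of another. The shorter core CCACG, which is contained in the reverse complement of TGACGTGG, was in 66.2% of the 71 windows and in 32.8% of all windows. The cyclic AMP response element TGACGTCA was in 1.41% against 1.79% of all, and the longer ER stress elements, CCAAT with 9 bases and then CCACG, and ATTGG with 1 base and then CCACG, were in none of the 71 windows and in 0.119% and 0.0365% of all. A match describes letters only, and no binding was measured.

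Across all classes, 52 of the 74 measured genes were called higher in the Lgr5-GFP-labelled RNA (70.3%) and 6 were called lower (8.11%), while 16 were not called. A call here is a limma adjusted p under 0.05, adjusted over all 14616 genes tested, of which 22.0% were called higher and 25.8% lower. The median log2 ratio of the 74 genes was 0.81, and that of all genes tested was -0.07. Without the genes that share only the letters, 50 of 69 were higher and 4 lower, with a median of 0.84. Of the 74 genes, 63 had the same sign on every array that gave a value, as had 10423 of the 14616 genes tested. These 2 counts rest on unlike numbers of arrays. The dye swap of replicate 1 gave no value for 19 of the 74 genes and for 9275 of the 14616. The count of 52 was 60 of 74 without the dye swap of replicate 1, where 27% of all genes were called higher. It was 12 of 55 without the first array of replicate 1, where 8.5% of 5341 genes were called higher and that replicate was left to its dye swap alone. It was 14 of 74 when the background correction was fitted on all spots, where 3.69% of all genes were called higher. Of the 58 calls in either direction, 42 were lost in at most 2 of up to 14 alternative settings, and 6, those of Ssr1, Sec16b, Spcs3, Sec24b, Lman1l and Srp14, were lost in 5 or more.

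**Figure D1:**
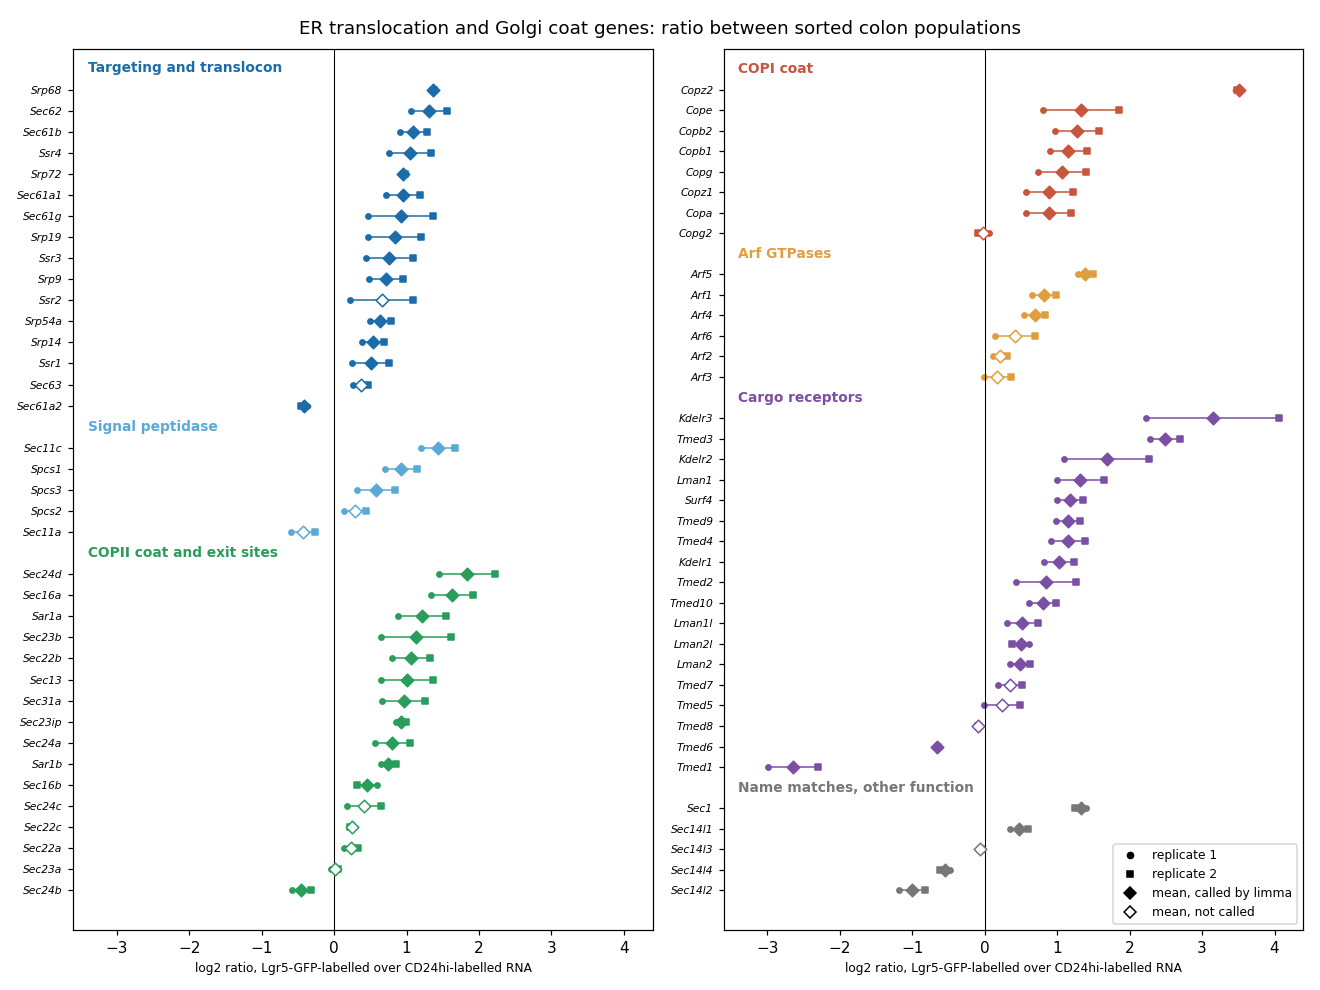
Log2 ratio of Lgr5-GFP-labelled over CD24hi-labelled RNA (x axis) for each of the 74 measured genes (y axis), grouped by role. Circles are replicate 1, squares replicate 2 and diamonds their mean, filled where limma called the gene; most diamonds lie right of 0, Copz2 (3.51) and Kdelr3 (3.15) farthest, and Tmed1 (-2.65) farthest left.

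The classes lay close together, with a few genes far from the rest. The median log2 ratio was 0.80 in targeting and translocon genes (13 of 16 higher, 1 lower), 0.58 in signal peptidase (3 of 5 higher), 0.87 in COPII and exit sites (11 of 16 higher, 1 lower), 1.11 in COPI (7 of 8 higher), 0.55 in Arf GTPases (3 of 6 higher) and 0.83 in cargo receptors (13 of 18 higher, 2 lower). Replicate 2 gave the higher median in each class: replicate 1 gave 0.48, 0.32, 0.64, 0.76, 0.34 and 0.62 in that order and replicate 2 gave 1.09, 0.84, 1.02, 1.41, 0.76 and 1.11. The replicate 1 values include its dye swap. On its first array alone the medians were 0.88, 0.51, 0.89, 1.28, 0.83 and 0.82, for Arf genes above replicate 2. By the replicate averages COPI had the highest median and the Arf and signal peptidase genes the lowest 2 in each replicate. Part of that order depended on the probes used. With the median of all measured probes of a gene, the class medians were 0.75, 0.69, 0.83, 0.89, 0.67 and 0.68 in the same order. COPI was then still highest, and cargo receptors lay below signal peptidase. Members of a class are not replicates, so the classes were not tested against each other. The 5 measured genes that share only letters had a median of -0.07, with 2 higher and 2 lower.

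**Figure D2:**
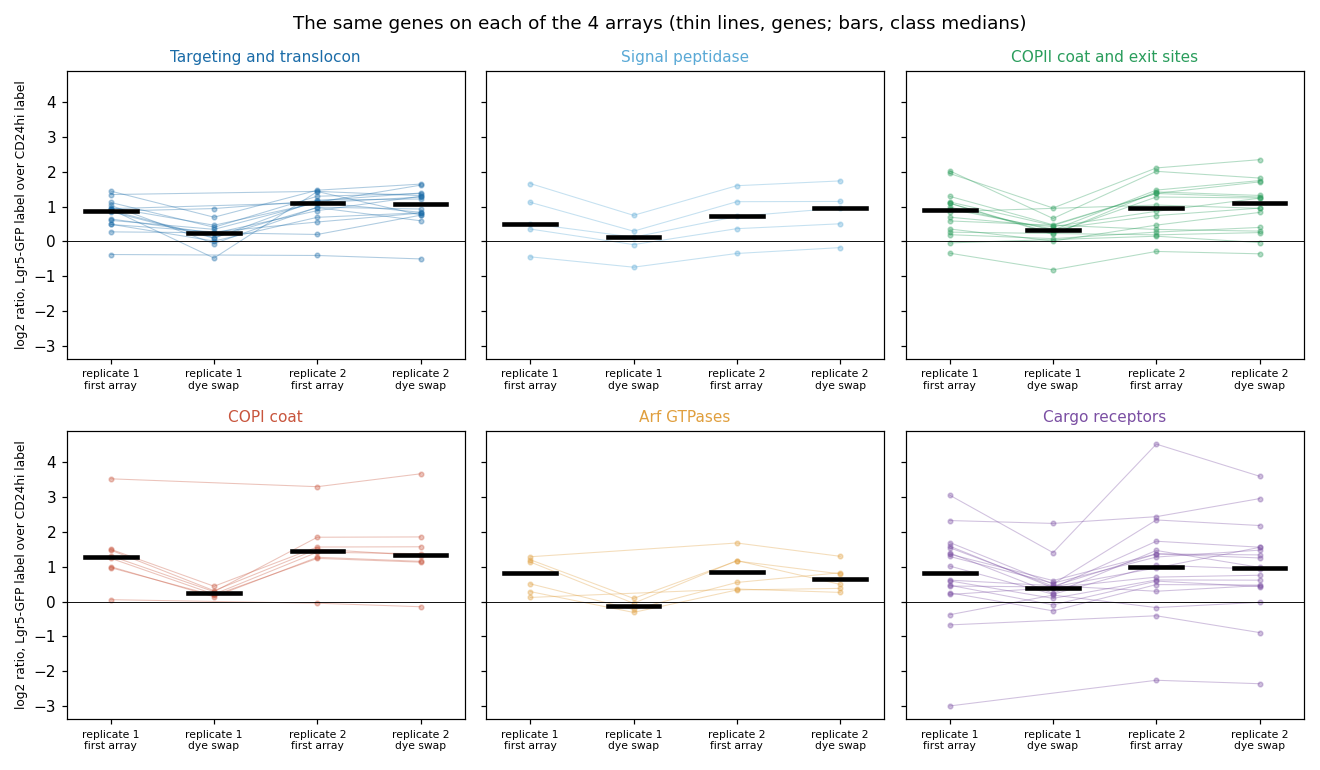
Log2 ratio of Lgr5-GFP-labelled over CD24hi-labelled RNA (y axis) on each of the 4 arrays (x axis), 1 panel a class. Thin lines are genes and black bars class medians; every class median was lowest on the dye swap of replicate 1, from -0.14 in Arf GTPases to 0.40 in cargo receptors.

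All 6 SRP protein genes were higher, from 0.53 for Srp14 to 1.36 for Srp68. Srp68, which with Srp72 binds the SRP RNA, gave 1.34, no value, 1.44 and 1.31, and its mean ratio was 1.36 ± 0.02 (SD, n = 2), a 2.57-fold difference (adjusted p = 0.000938). Its partner Srp72 was at 0.96 ± 0.02 (adjusted p = 0.00240). Srp54a, the subunit that holds the signal sequence, was at 0.64 ± 0.20 (adjusted p = 0.0122); its near-identical copies Srp54b and Srp54c could share signal with it. Srp9 and Srp14, the pair that slows translation, were at 0.72 ± 0.33 and 0.53 ± 0.22 (adjusted p = 0.0135 and 0.0238), and Srp19, an assembly subunit, was at 0.84 ± 0.51 (adjusted p = 0.0172).

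Of the Sec61 channel, the 3 genes of the main channel were higher and the gene of the alternative large subunit was lower. Sec61a1, the pore-forming subunit, gave 0.97, 0.46, 1.11 and 1.27, with a mean of 0.95 ± 0.33 (adjusted p = 0.00527). The small subunits Sec61b and Sec61g were at 1.09 ± 0.26 and 0.92 ± 0.63 (adjusted p = 0.00271 and 0.0196). Sec61a2, which encodes another form of the large subunit, gave -0.38, no value, -0.40 and -0.50, with a mean of -0.42 ± 0.05 (adjusted p = 0.0363). Every array value of Sec61a1 was above 0 and every one of Sec61a2 below it, although Sec61a2 was well above background in the Lgr5-GFP-labelled RNA on only 2 of 4 arrays. The call of Sec61a2 was lost in 4 of 12 alternative settings. Sec62, which helps small precursors into the channel, was at 1.31 ± 0.35 (adjusted p = 0.00209), while Sec63, its partner that recruits the chaperone BiP, was at 0.37 ± 0.15 and not called (adjusted p = 0.0625).

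The translocon-associated protein (TRAP) complex, which assists insertion of some signal peptides, had 3 of 4 genes called higher. Ssr4 was at 1.05 ± 0.40 (adjusted p = 0.00513), Ssr3 at 0.76 ± 0.46 (adjusted p = 0.0185) and Ssr1 at 0.50 ± 0.36 (adjusted p = 0.0472), a call that held in 5 of 14 alternative settings. Ssr2 gave 0.92, -0.48, 1.43 and 0.76, so that the dye swap of replicate 1 alone lay below 0, and its mean of 0.66 ± 0.62 was not called (adjusted p = 0.0539). Without that array Ssr2 was at 1.01 (adjusted p = 0.000325) and Sec63 at 0.37 (adjusted p = 0.0269).

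Signal peptidase uses either of 2 catalytic subunits, Sec11a or Sec11c, and these lay on opposite sides of 0. Sec11c gave 1.66, 0.75, 1.60 and 1.74, with a mean of 1.44 ± 0.33, a 2.71-fold difference (adjusted p = 0.00154). Sec11a gave -0.44, -0.74, -0.35 and -0.18, with a mean of -0.43 ± 0.23, and missed the threshold narrowly (adjusted p = 0.05003). Its other probe was at 0.23, so the direction of Sec11a depended on the probe. Among the accessory subunits, Spcs1 was at 0.93 ± 0.31 (adjusted p = 0.00527) and Spcs3 at 0.58 ± 0.37 (adjusted p = 0.0324), and both were called higher. The call of Spcs3 was lost in 7 of 14 alternatives. Spcs2 was at 0.28 ± 0.22 and not called (adjusted p = 0.143). Without the dye swap of replicate 1, Spcs2 was called higher at 0.39 (adjusted p = 0.0179) and Sec11a lower at -0.35 (adjusted p = 0.0319).

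In the COPII coat, both Sar1 GTPases were higher, Sar1a at 1.21 ± 0.47 (adjusted p = 0.00407) and Sar1b, the form known for chylomicron export, at 0.75 ± 0.15 (adjusted p = 0.00620). The outer coat genes Sec13 and Sec31a were at 1.01 ± 0.51 and 0.96 ± 0.42 (adjusted p = 0.00910 and 0.00735), while Sec31b was not measured. The inner coat, where Sec23 activates Sar1 and Sec24 binds cargo, was not uniform: 3 of its 6 genes were higher, 1 was lower and 2 were not called.

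Sec24d had the highest ratio of the COPII genes. It gave 1.95, 0.96, 2.11 and 2.35, with a mean of 1.84 ± 0.55, a 3.58-fold difference (adjusted p = 0.00161). Its relatives were lower in order, Sec24a at 0.81 ± 0.35 (adjusted p = 0.00992), Sec24c at 0.42 ± 0.33 (not called, adjusted p = 0.0752) and Sec24b at -0.45 ± 0.18 (called lower, adjusted p = 0.0363). Sec24b gave -0.34, -0.82, -0.29 and -0.36, and thus lay below every array value of Sec24d. The ranges of Sec24a, from 0.42 to 1.24, and Sec24c, from 0.01 to 0.83, overlapped. Without the dye swap of replicate 1, Sec24c was called higher at 0.50 (adjusted p = 0.0105). The call of Sec24b was lost in 6 of 14 alternative settings, with an adjusted p of up to 0.330. Differences between paralogs were not tested.

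Sec23b and Sec23a also parted. Sec23b gave 0.98, 0.32, 1.47 and 1.74, with a mean of 1.13 ± 0.68 (adjusted p = 0.0116). Sec23a gave -0.04, no value, 0.15 and -0.03, with a mean of 0.01 ± 0.07 (adjusted p = 0.969). Every array value of Sec23b was above every value of Sec23a.

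The scaffolds of ER exit sites were higher as well. Sec16a, which organises the sites, gave 2.03, 0.66, 2.01 and 1.82, with a mean of 1.63 ± 0.41, a 3.09-fold difference (adjusted p = 0.00142). Sec16b, its shorter relative, was at 0.45 ± 0.19 (adjusted p = 0.0367), a call lost in 7 of 13 alternative settings, and Sec23ip, a Sec23-binding lipase-like protein, at 0.93 ± 0.10 (adjusted p = 0.00287). The SNARE gene Sec22b, which serves fusion between ER and Golgi, was at 1.06 ± 0.38 (adjusted p = 0.00442), and its relatives Sec22a at 0.23 ± 0.14 and Sec22c at 0.24 ± 0.03 were not called (adjusted p = 0.184 and 0.153).

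The COPI coat is built of 7 kinds of subunit, and the names here cover 6 of them; the seventh, Arcn1, is given with the other genes of the pathway. Of 8 genes, 7 were higher and none was lower. Copa was at 0.88 ± 0.43, Copb1 at 1.16 ± 0.37, Copb2 at 1.27 ± 0.42 and Cope at 1.33 ± 0.75 (adjusted p = 0.0103, 0.00329, 0.00302 and 0.00875).

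The gamma and zeta subunits each have 2 forms. Copg, now named Copg1, gave 1.24, 0.21, 1.42 and 1.38, with a mean of 1.06 ± 0.47 (adjusted p = 0.00645), and Copg2 gave 0.06, no value, -0.05 and -0.15, with a mean of -0.02 ± 0.11 (not called, adjusted p = 0.912). Copz1 was at 0.89 ± 0.46 (adjusted p = 0.0109). Copz2 gave 3.53, no value, 3.30 and 3.67, and its mean of 3.51 ± 0.03, an 11.4-fold difference, was the highest of all 74 genes and above 99.9% of genes tested (adjusted p = 0.000492). It has no value on the dye swap of replicate 1; without that array Kdelr3, a KDEL receptor gene that has one, was at 3.56 and Copz2 at 3.51. With marked spots kept Kdelr3 was at 3.15 and Copz2 at 2.77, and with the background correction fitted on all spots Tmed3, a cargo receptor gene, was at 2.74 and Copz2 at 2.71. Its probe lies at chr11:96722183-96722242 on the plus strand (mm9, per the array files); a dimmer probe of Copz2 was not well above background and was not used. Within this coat the ratio thus spanned from near 0 in Copg2 to 3.51 in Copz2, with the other 6 genes between 0.88 and 1.33.

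Of the Arf GTPases, Arf1, Arf4 and Arf5 were called higher and Arf2, Arf3 and Arf6 were not called. Arf5 gave 1.29, no value, 1.68 and 1.30, with a mean of 1.39 ± 0.14 (adjusted p = 0.00101). Arf1, the main recruiter of COPI, was at 0.81 ± 0.24 (adjusted p = 0.00611), and Arf4, which works with it in the early Golgi, at 0.69 ± 0.21 (adjusted p = 0.00964). Arf2 was at 0.22 ± 0.14, Arf3 at 0.17 ± 0.26 and Arf6, which acts at the plasma membrane, at 0.42 ± 0.39 (adjusted p = 0.214, 0.367 and 0.0904). Without the dye swap of replicate 1, Arf3 was at 0.32 (adjusted p = 0.0380) and Arf6 at 0.60 (adjusted p = 0.00347).

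All 3 KDEL receptors, which return escaped ER residents, were higher, and they differed in size. Kdelr3 gave 3.06, 1.41, 4.52 and 3.60, with a mean of 3.15 ± 1.29, an 8.85-fold difference (adjusted p = 0.00249). Its single probe lies at chr15:79357588-79357647 on the plus strand (mm9). Kdelr2 gave 1.70, 0.50, 2.34 and 2.19, with a mean of 1.68 ± 0.82 (adjusted p = 0.00507), and Kdelr1 gave 1.40, 0.24, 1.47 and 0.98, with a mean of 1.02 ± 0.29 (adjusted p = 0.00359). On each array the order was Kdelr3, then Kdelr2, then Kdelr1, although their ranges over arrays overlapped. The 4 lectin-type receptors, which bind sugar chains of cargo, were also higher: Lman1, the receptor for blood clotting factors, at 1.32 ± 0.46 (adjusted p = 0.00311), and Lman1l, Lman2 and Lman2l between 0.48 and 0.52 (adjusted p from 0.0255 to 0.0356). Surf4, a receptor for soluble cargo, was at 1.18 ± 0.26 (adjusted p = 0.00211).

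The p24 family (Tmed), transmembrane proteins of COPI and COPII vesicles, was the most divided group. Of its 11 genes 10 were measured, 5 were higher, 2 were lower and 3 were not called; Tmed11 was not measured. Tmed3 gave 2.33, 2.25, 2.44 and 2.96, with a mean of 2.49 ± 0.29, a 5.63-fold difference (adjusted p = 0.000520), and its value on the dye swap of replicate 1 was the lowest of the 4. Tmed4 and Tmed9 were both at 1.15 (adjusted p = 0.00293 and 0.00211), Tmed2 at 0.85 ± 0.59 (adjusted p = 0.0216) and Tmed10 at 0.80 ± 0.26 (adjusted p = 0.00711).

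Tmed1, a p24 protein first known as a binder of an interleukin receptor, went the other way. It gave -2.99, no value, -2.26 and -2.36, with a mean of -2.65 ± 0.49, a 6.28-fold difference (adjusted p = 0.000630), and only 0.356% of genes tested were lower. Tmed6 gave -0.67, no value, -0.41 and -0.89, with a mean of -0.66 ± 0.02 (adjusted p = 0.00773). Tmed5 at 0.24 ± 0.35, Tmed7 at 0.35 ± 0.23 and Tmed8 at -0.09 ± 0.0013 were not called (adjusted p = 0.266, 0.0877 and 0.559). On single arrays Tmed8 gave -0.38, 0.19, -0.17 and -0.02, a spread that its SD does not show. Without the dye swap of replicate 1, Tmed5 was at 0.37 (adjusted p = 0.0303) and Tmed7 at 0.49 (adjusted p = 0.00694), both then called higher. Tmed1 rests on 1 probe, at chr9:21312002-21312061 on the minus strand (mm9), and on 3 arrays, all of them below 0.

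Among the genes that share only the letters, Sec1 was at 1.32 ± 0.10 (adjusted p = 0.00107) and Sec14l1 at 0.47 ± 0.18 (adjusted p = 0.0319). Sec14l2, known for binding tocopherol, gave -1.18 in replicate 1 and -0.82 in replicate 2 (adjusted p = 0.00341), and Sec14l4 was at -0.55 ± 0.10 (adjusted p = 0.0154). Sec14l3 was at -0.07 ± 0.02 and not called (adjusted p = 0.673); it was well above background in the Lgr5-GFP-labelled RNA on 2 of 4 arrays. None of these 5 had a value on the dye swap of replicate 1. Copg2as2 was not measured: with Tmed11 and Sec31b, it was above background on 1 of 4 arrays only.

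How firmly a gene's value holds also depends on its probe. Of the 74 genes, 35 had 2 or more measured probes, and in 1 of them probes were called in opposite directions. That gene was Srp9: its probes against the RefSeq transcript were at 0.72 and 0.74, and the other, designed on another transcript sequence, was at -1.20. The brightest probe of Sec61a1 gave 0.95 and its others 1.64 and 0.46, all called higher. In 6 genes the brightest probe was not called and another was called higher: the pairs of values were 0.28 and 1.102 for Spcs2, 0.42 and 1.21 for Arf6, 0.17 and 0.76 for Arf3, 0.37 and 0.90 for Sec63, 0.23 and 0.47 for Sec22a, and 0.24 and 0.45 for Sec22c. The reverse also occurred. In Srp72 the brightest probe was called higher at 0.96, and its others, at 0.06 and 0.30, were not called. Tmed10 was called at 0.80 and Sec16b at 0.45, while their other measured probes, at 0.34 and 0.29, were not called. In Ssr1, whose brightest probe was called, 3 of 5 probes were called higher. In Sec22b, Ssr4, Sec14l1, Sec23ip, Sec24a and Sec16a the probes lay within 0.05 of each other.

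**Figure D3:**
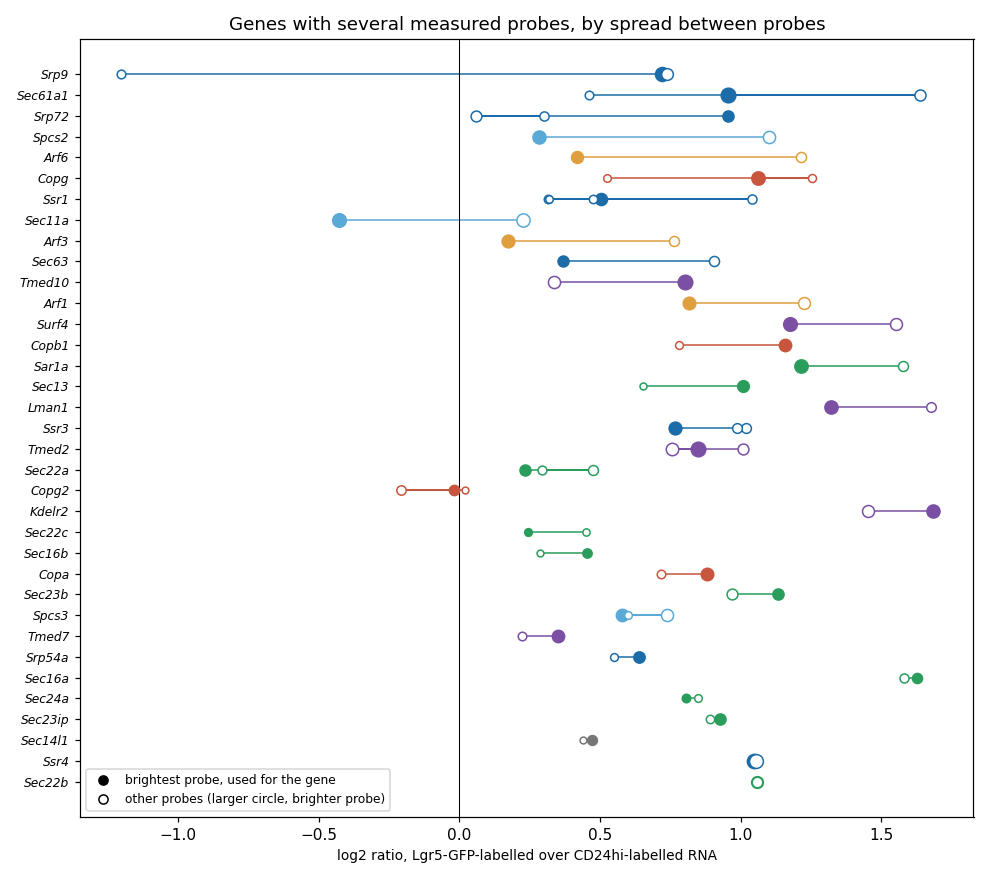
Log2 ratio of Lgr5-GFP-labelled over CD24hi-labelled RNA (x axis) of every measured probe of the 35 genes with 2 or more such probes (y axis), ordered by the spread between probes. The filled circle is the brightest probe, used for the gene; Srp9 has the widest spread, from -1.20 to 0.74, and Sec22b the narrowest, at 1.06.

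Genes of the same route with other names moved in the same direction. Of 57 listed names 2, Srpra and Ctage5, are other names of listed genes; 54 genes were measured, 46 were called higher (85.2%) and none was called lower; among all genes tested 22.0% were higher. Their median was 0.95. Without the dye swap of replicate 1, 50 of the 54 were called higher, where 27% of all genes were. In translocation and glycan transfer, 14 of 16 were higher, led by the SRP receptor genes Srpr at 2.20 ± 0.15 (adjusted p = 0.000516) and Srprb at 1.62 ± 0.00086 (adjusted p = 0.000679) and the co-chaperone gene Dnajc3 at 1.48 ± 0.61 (adjusted p = 0.00376). Stt3b, one of the catalytic subunits of oligosaccharyltransferase, was at -0.12 ± 0.22 and not called (adjusted p = 0.533), and the chaperone gene Hspa5 was at 0.55 ± 0.61 and not called (adjusted p = 0.0882). Stt3a, the other catalytic subunit of oligosaccharyltransferase, was at 0.85 ± 0.07 (adjusted p = 0.00360).

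Of 20 measured COPII and exit genes, 14 were higher, with Mia3, which helps load large cargo such as collagen, at 2.26 ± 0.06 (adjusted p = 0.000516). Mcfd2, the partner of Lman1, was at 2.01 ± 0.39 (adjusted p = 0.000820), and the tether Uso1 at 1.88 ± 0.03 (adjusted p = 0.000567). Of the 8 TRAPP tethering genes, 3 were called. All 18 COPI and Golgi structure genes were higher, from 0.62 for Arfgap2 to 1.77 for the stacking protein gene Gorasp2 (adjusted p = 0.00114), with Stx5a at 1.62 ± 0.68 (adjusted p = 0.00355) and Arcn1, the delta subunit of COPI, at 1.01 ± 0.11 (adjusted p = 0.00227).

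Of 10 transcription factors known for secretory pathway genes, 8 were higher and none was called lower. Spdef, a goblet cell factor, was at 2.82 ± 1.24 (adjusted p = 0.00304), Creb3l4 at 2.48 ± 0.77 (adjusted p = 0.00138) and Bhlha15, also called Mist1, at 2.37 ± 0.74 (adjusted p = 0.00144). Xbp1 gave 2.56, 0.99, 2.50 and 2.41, with a mean of 2.12 ± 0.48 (adjusted p = 0.000917), and Creb3l1 was at 2.01 ± 0.10 (adjusted p = 0.000549). Creb3 was at 1.49 ± 0.58, Atf6 at 0.81 ± 0.46 and Atf4 at 0.65 ± 0.08 (adjusted p = 0.00331, 0.0156 and 0.00880). Creb3l2 at -0.31 ± 0.17 and Creb3l3 at 0.07 ± 0.13 were not called (adjusted p = 0.0997 and 0.689).

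**Figure D4:**
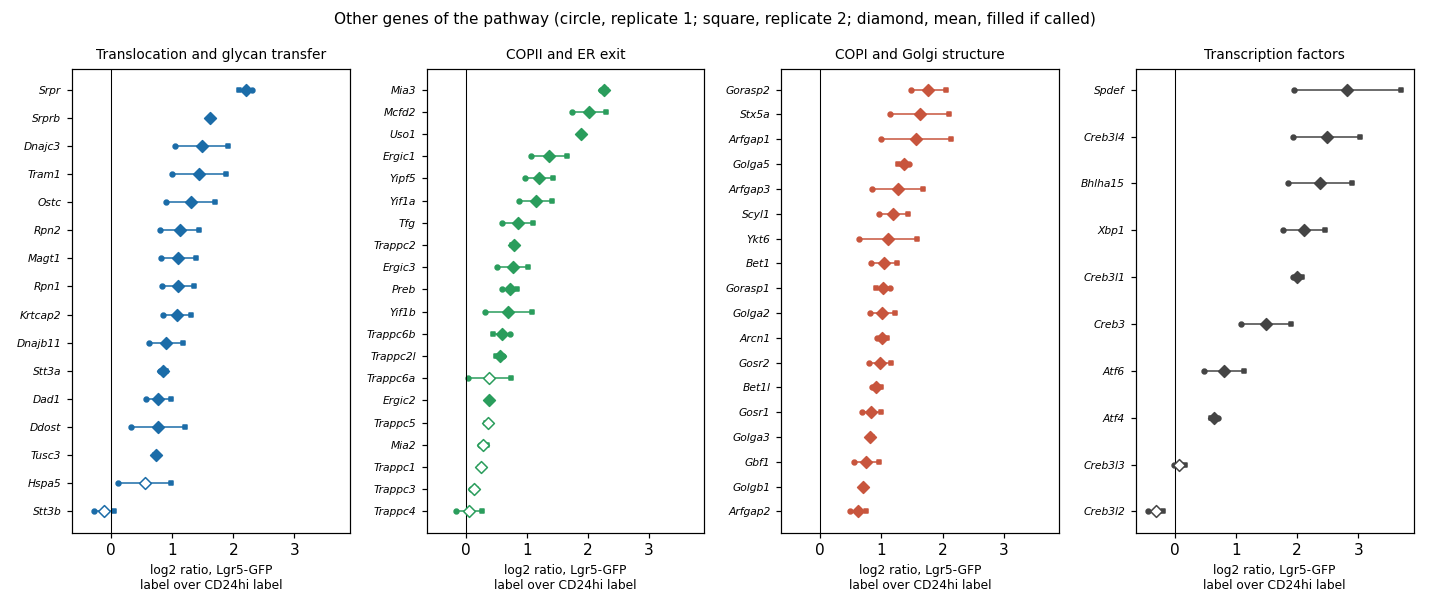
Log2 ratio of Lgr5-GFP-labelled over CD24hi-labelled RNA (x axis) of other genes of the route and of transcription factors (y axis), 1 panel a list. Circles are replicate 1, squares replicate 2 and diamonds their mean, filled where limma called the gene; all 18 COPI and Golgi structure genes lie right of 0, and Spdef (2.82) is the highest factor.

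Markers of several cell types moved with these genes, and their part in the result was not tested. Of 10 goblet cell markers 7 were higher and none was called lower, over a range from -0.95 to 4.05. Tff3, Fcgbp and Zg16 were not called. Tff3 was at -1.75 in replicate 1 and -0.16 in replicate 2. Fcgbp, at -0.41 and 0.61, and Zg16, at 0.80 and -0.20, differed in sign between replicates. Of enteroendocrine markers 3 of 5 measured were higher, with a median of 2.81. The others, Pyy and Gcg, were not called and differed in sign between replicates. Pyy was at -0.94 in replicate 1 and 2.48 in replicate 2, and Gcg at -1.69 and 2.01. All 3 measured tuft cell and all 3 measured deep crypt secretory markers were higher, with medians of 1.97 and 2.08. Of the latter, Reg4 was at 0.88 in replicate 1 and 3.28 in replicate 2. All 5 measured stem cell markers were lower, with a median of -2.09, and so were all 5 cycling cell markers, with a median of -2.98. Absorptive colonocyte markers had 3 of 6 higher and a median of 0.48. Plasma cells are also rich in this machinery. Of 9 names of plasma and B cell markers 1 was measured, Sdc1 at -0.16, and it was not called (adjusted p = 0.538). Sdc1 differed in sign between replicates, at -0.55 in replicate 1 and 0.22 in replicate 2, and the part of plasma cells was not tested. Of the T cell and myeloid markers 1 of 4 each was measured and not called, and none of 5 stromal and endothelial markers was measured.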

How the data were processed

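The arrays were read with Agilent Feature Extraction 10.5.1.1, per the file headers. The intensity values used, as deposited, were each spot's mean brightness and local background median in green and red, not normalized. The deposited log10 ratio of red over green, per the file headers, rests on the software's processed signals, and the deposited series table, matched to it, holds a log2 ratio of red over green; the sources used here do not state its normalization. Probe positions in the files are on mm9.

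In R 4.3.3 with limma 3.58.1, backgrounds were corrected with normexp (offset 50; spots with an uneven background left out), arrays were normalized by loess, and control and marked spots were left out. Ratios were turned to Lgr5-GFP over CD24hi, and each array was averaged with its dye swap, so that n is 2; a gene without a value on the dye swap of replicate 1 rests on 1 array in that replicate. A probe was kept if 1 population or both had it well above background on all 4 arrays, and genes kept their brightest probe. The 2 ratios were tested against 0, two-sided, with Benjamini-Hochberg adjustment over 14616 genes (1 residual degree of freedom, 4.64 from the prior). The number of arrays limits the precision. The test was tried on simulated data, and the outcome of that trial is not given here.

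Gene names are those of the array files; 25097 of 41174 gene probes matched a RefSeq symbol, by which the listed markers and pathway genes were looked up first. The named genes were the 4 highest and 4 lowest called per class, those not called (3 per large class), paralogs, genes with conflicting probes, and the extremes of the other lists; genes beyond these are named to complete a family. The members and lists were chosen with earlier results of these data known. A comparison of paralog proteins was planned and not made.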

Additional observations from a re-analysis of the deposited data

Results flagged for a closer look

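Dixon's test for 1 outlying value would mark about 1 gene in 20 if all values were independent. Here an array and its dye swap are paired and genes share each array, so that rate is no yardstick for the counts. In 15 of the 55 genes with a value on all 4 arrays, 1 array lay far from the other 3 by this test. In 14 of them that array was the dye swap of replicate 1. On that array the log2 ratio was -0.0643 for Srp9, 0.29 for Spcs1, 0.75 for Sec11c, -0.82 for Sec24b, 0.23 for Sec31a, 0.66 for Sec16a, 0.31 for Copb1, 0.44 for Copb2, 0.21 for Copg, -0.31 for Arf3, 0.40 for Lman1, 0.0938 for Lman2, 0.60 for Tmed9 and 0.21 for Tmed10, in each case the lowest of the 4 values. Sec63 was the exception, with 0.75 on the dye swap of replicate 2 and 0.20 to 0.27 on the other arrays. Of the other values, Xbp1 at 0.99 and the median of the COPI genes at 0.25 were likewise lowest on the dye swap of replicate 1. That array is also the one with 75.3% of its spots marked, and the part of the marking in these values was not tested.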

How the results depend on the processing

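The class medians kept their sign and moved by less than the spread between replicates under every alternative run, and no called gene named here changed sign. With normexp fitted on all spots, 14 of the 74 genes were called higher and 0 lower (main setting 52 and 6; smallest adjusted p over all genes 0.0418, 5677 genes at an unadjusted p under 0.05), 15 of 54 other pathway genes higher, and 539 and 402 of all genes higher and lower (3216 and 3766), while Lgr5 was at -2.71 with an adjusted p of 0.0544; the cause was not tested. With marked spots kept, 3 were called lower. Without 1 array at a time, genes called higher ran from 12 to 60 and lower from 0 to 7, other pathway genes higher from 9 to 50, all genes higher from 454 to 3947 and lower from 440 to 4488; the lowest counts came without the first array of replicate 1, where 55, 38 and 5341 genes were left to test, and the highest without its dye swap. With median centring only, the median of all genes was -0.25 in place of -0.07, and 2196 were called higher and 5328 lower, against 44 and 7 of the 74 genes. Leaving out a whole replicate left values with no test, and the class medians were then as given per replicate. Signal near the background limits Sec61a2, Sec14l3 and Lgr5, and the protein comparison was not run. Both RNAs of a replicate share each array, so the ratio tested is already the paired value, and no further pairing was made.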
